A study of Homo sapiens with 6 samples.

Results

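The first 440 nt of human 18S ribosomal RNA, the start of its 5′ domain, were examined for the marks that a carbodiimide leaves on pseudouridine (Ψ) during reverse transcription. All positions from 1 to 440 were taken, and a position was kept where at least 100 reads crossed it in both libraries of a pair. This kept 439 of the 440 positions in each pair, against 6912 of the 6939 positions of 18S and 28S rRNA that passed in every pair of the series. Only position 1 was lost, since no read crossed it, and the lowest crossing count at any other position was 6249, far above the minimum. Among the members were 10 listed pseudouridines, at positions 34, 36, 93, 105, 109, 119, 210, 218, 296 and 406. The list came from general knowledge of human rRNA and not from these libraries, and it also held 11 ribose methylations and 28 pseudouridines in the rest of 18S. The reference base was U at all 10 sites.

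The RNA was total RNA over 200 nt from HEK293T/17, a line derived from human embryonic kidney. The labels name no separate cultures, so the 6 libraries stand for 1 line and not for the spread between cultures, and rRNA tables hold no marker that would check the cell type. Fragments were either treated with CMC or mock-treated, and each was then copied with HIV reverse transcriptase and magnesium (HIV RT), with SuperScript III and manganese (SSIII Mn) or with SuperScript III and magnesium (SSIII Mg). Each of the 6 combinations had 1 library, so no difference had a replicate check, and every test compared 2 libraries and not 2 treatments.

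Pseudouridine is uridine joined to its ribose through carbon, and in human rRNA it is made by the enzyme dyskerin in box H/ACA particles, whose guide RNAs pair with the rRNA around each target. CMC attaches a large adduct to U and G as well as to Ψ, where it is the most stable, so that a reverse transcriptase meeting it can halt, or can pass and insert a wrong base. The 5′ domain of 18S folds into the body of the small ribosomal subunit, and besides Ψ it carries methyl groups on ribose, which box C/D particles place and which do not take up CMC.

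The sequences around the listed sites are shown because their neighbouring bases differ and because many of the stops described here fell on those neighbours. They are 5′ to 3′ and come from the deposited tables, which write U as T. The capitals mark the listed pseudouridines, and positions are those of the deposited 18S sequence, counted from 1.
Ψ34 and Ψ36, positions 27 to 43: atgcttgTcTcaaagat
Ψ93, positions 86 to 100: ctgcgaaTggctcat
Ψ105 and Ψ109, positions 98 to 116: cattaaaTcagTtatggtt
Ψ119, positions 112 to 126: tggttccTttggtcg
Ψ210, positions 203 to 217: ggggggaTgcgtgca
Ψ218, positions 211 to 225: gcgtgcaTttatcag
Ψ296, positions 289 to 303: gtgactcTagataac
Ψ406, positions 399 to 413: ccacgggTgacgggg

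Further stretches are shown for positions outside the lists. U359 and U388, in capitals in the first and the second, had stops with CMC in all 3 conditions. G288 and U290, in capitals in the third, were misread in the SSIII Mn library with CMC. The fourth is the 5′ end of the molecule, with the positions of called mutation changes in capitals.
U359, positions 352 to 366: tctgcccTatcaact
U388, positions 381 to 395: ccgtgccTaccatgg
G288 and U290, positions 281 to 297: cggctttGgTgactcta
5′ end, positions 1 to 20: tACctggttGatcctgccag

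No genome build applies to these positions. RefSeq for GRCh38.p14 lists 5 18S genes, RNA18SN1 to RNA18SN5, and all 5 have the 1869 nt of the deposited sequence. Whether their sequences are identical was not examined, and the counts are given for 1 deposited sequence and not by rDNA copy. That sequence does not match the reads everywhere. At a G within positions 1 to 110, up to 99.5% (HIV RT), 99.97% (SSIII Mn) and 99.98% (SSIII Mg) of mock reads had another base. With CMC the highest shares were 99.6%, 99.9% and 99.9%. U made up 22.5% of the 440 positions and G plus C 58.2%.

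The mutation share of a position is how many percent of the reads crossing it had a base other than the reference. The stop share divides the stops at a position by the sum of its stops and crossing reads, in percent. A read that ended right after copying a base is taken to be booked as a stop at the base 5′ of it. Such a read is then absent from the crossing reads of the base it copied last. Differences are CMC minus mock, in percentage points. A position was called where the difference was at least 5 points and Fisher's exact test, two-sided and with Benjamini-Hochberg adjustment over all tested positions of 18S and 28S, was under 0.05. The libraries held between 21206954 and 47002169 ended reads over both rRNAs, and the median position of the region was crossed by 69917 to 204114 reads. At the listed pseudouridines the lowest crossing count was 9095, at Ψ109 in the SSIII Mg library with CMC. Intervals at 95% for a share there reached at most 0.492 points to either side for mutation and 0.768 points for stops, and they cover counting error only, since reads amplified without molecular identifiers are not independent molecules.

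With CMC, the mutation share was above mock at all 10 listed pseudouridines in all 3 conditions, but the sizes ranged widely. Ψ406 had the strongest mutation signal over the 3 conditions together. It was misread in 19.3% of crossing reads with CMC (95% Wilson interval 19.1 to 19.6) and 0.367% in mock for HIV RT, in 14.8% and 0.267% for SSIII Mn, and in 14.6% and 0.132% for SSIII Mg. The rises of 18.9, 14.5 and 14.5 points made Ψ406 the only listed site called for mutation in every condition.

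At Ψ34 the mutation share was 16.9% with CMC and 0.534% in mock for HIV RT, 18.8% and 0.191% for SSIII Mn, and 0.397% and 0.0507% for SSIII Mg. It was thus above Ψ406 with manganese and under 1% when the same enzyme used magnesium. Ψ210 followed the same pattern, at 11.8% against 0.611% for HIV RT, 9.79% against 0.104% for SSIII Mn, and 0.604% against 0.0562% for SSIII Mg. Ψ109 was called under the same conditions, with 6.86% against 0.576% for HIV RT, 10.8% against 0.117% for SSIII Mn, and 2.05% against 0.0643% for SSIII Mg, the last an uncalled difference of 1.98 points.

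Ψ93 and Ψ218 were called for mutation with HIV RT alone. Ψ93 gave 16.4% with CMC and 0.777% in mock for HIV RT, 2.27% and 0.228% for SSIII Mn, and 0.221% and 0.0314% for SSIII Mg. Its HIV RT change exceeded its SSIII Mn change by 13.6 points, with a 95% counting interval of 13.2 to 13.9. Ψ218 gave 7.16% and 0.563% for HIV RT, 0.954% and 0.0983% for SSIII Mn, and 0.836% and 0.0467% for SSIII Mg.

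The other 4 sites were called for mutation in no condition, though their shares with CMC lay above mock throughout. Ψ105 came nearest to the bar, with 5.72% against 1.02% for HIV RT, a difference of 4.71 points, and 1.12% against 0.195% for SSIII Mn and 0.242% against 0.0327% for SSIII Mg. Ψ119 had 2.87% against 0.422%, 3.19% against 0.139%, and 1.63% against 0.0850% in the same order. Ψ36 lies 2 nt from Ψ34 yet had 2.32% against 0.420%, 1.29% against 0.0434%, and 0.340% against 0.0329%. Ψ296 had the smallest HIV RT change of the list, 2.15% against 0.875%, with 0.952% against 0.0880% for SSIII Mn and 0.224% against 0.0447% for SSIII Mg.

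**Figure D1:**
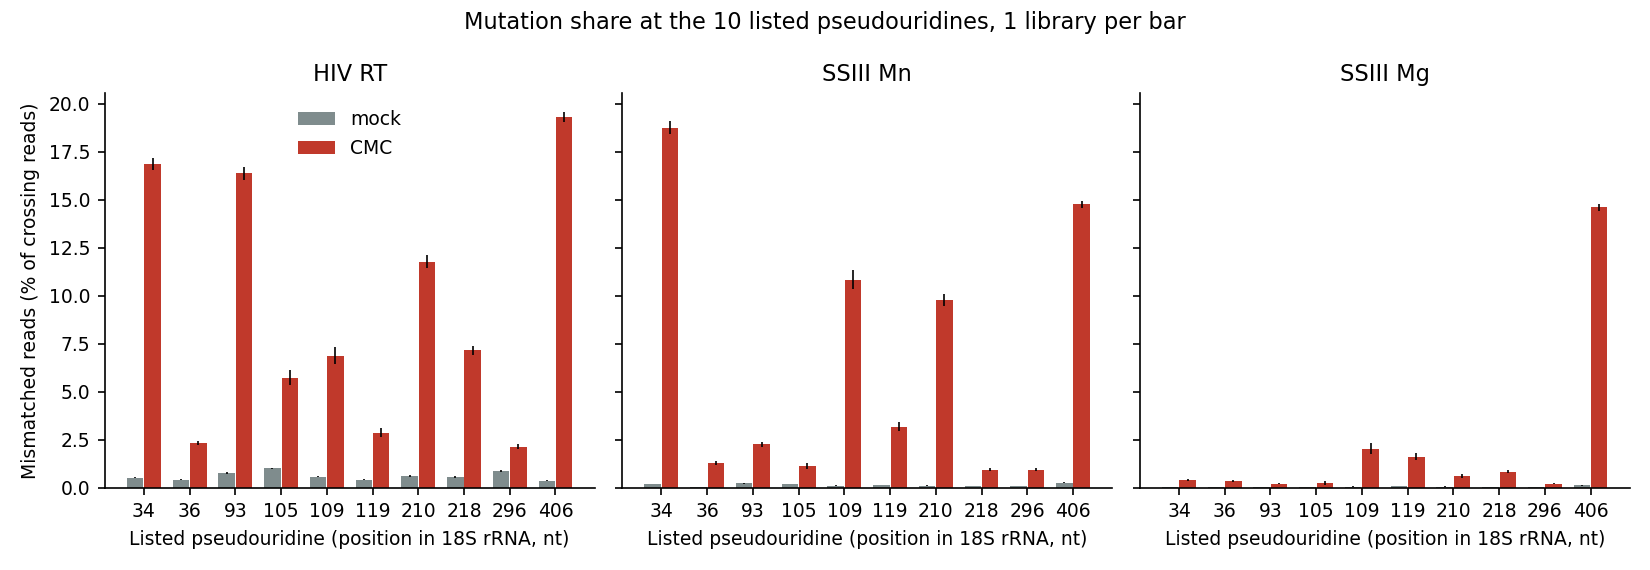
Mutation share (percent of crossing reads with another base) at the 10 listed pseudouridines, by position in 18S rRNA; grey bars are mock and red bars CMC, 1 library each, with 95% Wilson intervals. Ψ34, Ψ93 and Ψ406 exceed 16% with HIV RT, and with SSIII Mg only Ψ406 stands high, at 14.6%.

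Mutation calls were made at 6 of 10 listed sites for HIV RT, 4 of 10 for SSIII Mn and 1 of 10 for SSIII Mg. Over all positions of both rRNAs the calls of higher mutation with CMC covered 1.05%, 1.29% and 0.159% of positions in the same order. The median change over the 10 sites was 6.44, 2.55 and 0.447 points. Over the 83 unlisted U of the region it was 0.589, 0.513 and 0.0932 points, and over the 28 listed pseudouridines in the rest of 18S 4.45, 4.71 and 0.508 points. For HIV RT, 6 of the 10 sites exceeded the largest change at any unlisted U of the region (4.96 points); for SSIII Mn it was 4 (largest 6.77 points) and for SSIII Mg 3 (largest 0.9496 points).

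Site by site, the mutation change with HIV RT was above that with SSIII Mg at 10 of 10 sites, by a median of 4.48 points, and every counting interval of that difference lay above 0. SSIII Mn was above SSIII Mg at 10 of 10 sites as well, with 8 intervals above 0 and none below. HIV RT was above SSIII Mn at 7 sites and below at 3, namely Ψ34, Ψ109 and Ψ119, all 10 intervals clear of 0. These intervals hold counting error alone, since each condition had 1 library per treatment.

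The base 3′ of a site, which the reverse transcriptase copies just before it, varied over the list. All 3 sites followed by G (Ψ93, Ψ210 and Ψ406) were called for mutation with HIV RT, at 15.6, 11.2 and 18.9 points. Ψ296, the only site followed by A, had the smallest HIV RT mutation change, 1.27 points. Sites followed by C (Ψ34, Ψ36 and Ψ105) ranged from 1.90 to 16.3 points and those followed by U (Ψ109, Ψ119 and Ψ218) from 2.44 to 6.59 points, so neither group held together. With so few sites of each kind no test was made.

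Stops with CMC were more frequent at most of the same sites, but the order of the sites was a different one. Ψ296, nearly silent by mutation, had the highest stop share of the list with both SuperScript III conditions. It stopped 27.6% of reads with CMC and 2.67% in mock for HIV RT, 39.5% and 3.92% for SSIII Mn (Wilson interval with CMC 39.2 to 39.8), and 47.1% and 5.84% for SSIII Mg. The changes were 24.95, 35.6 and 41.3 points, the only ones of the list above 20 points in all conditions.

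Ψ210 was called for both measures with HIV RT and SSIII Mn. Its stop share was 14.0% against 1.54% for HIV RT, 18.1% against 3.88% for SSIII Mn, and 35.5% against 2.29% for SSIII Mg, so the condition with the lowest mutation change had the highest stop change. Ψ218 showed 28.8% against 2.79%, 15.6% against 3.20%, and 32.7% against 3.17%. At Ψ34 the stop share was 18.1% against 2.03%, 7.44% against 1.88%, and 25.6% against 0.789%, and SSIII Mn, with its highest mutation change, had its lowest stop change, 5.56 points.

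Ψ36 and Ψ119 were called for stops in all 3 conditions without a mutation call. Ψ36 had 10.3% against 3.00% for HIV RT, 15.1% against 3.92% for SSIII Mn, and 31.5% against 7.35% for SSIII Mg. Ψ119 had the highest HIV RT stop share of the list, 43.9% against 6.80%, but only 9.95% against 2.19% for SSIII Mn and 7.88% against 0.297% for SSIII Mg. Its HIV RT change was 29.4 points above its SSIII Mn change (counting interval 28.7 to 30.0).

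The remaining sites missed the stop call in at least 1 condition. Ψ109 stopped 27.98% of reads with CMC and 6.37% in mock for HIV RT and 24.5% and 2.62% for SSIII Mg, while 5.91% against 2.54% for SSIII Mn was an uncalled 3.36 points. Ψ105 was called with 9.60% against 2.44% for SSIII Mn and 9.73% against 1.36% for SSIII Mg, and was not called for HIV RT, at 6.82% against 2.71%. Ψ406 was called with 12.0% against 3.77% for HIV RT and 8.17% against 0.558% for SSIII Mg, and not for SSIII Mn, at 4.17% against 2.77%. The strongest mutation site was therefore among the weaker stop sites.

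Ψ93 was the only listed site without a stop call. Its stop share was 0.860% with CMC and 0.454% in mock for HIV RT, 1.64% and 2.04% for SSIII Mn, and 1.08% and 1.23% for SSIII Mg, so that it lay below mock in both SuperScript III conditions. With HIV RT it was misread in 16.4% of crossing reads and stopped fewer than 1% of reads.

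**Figure D2:**
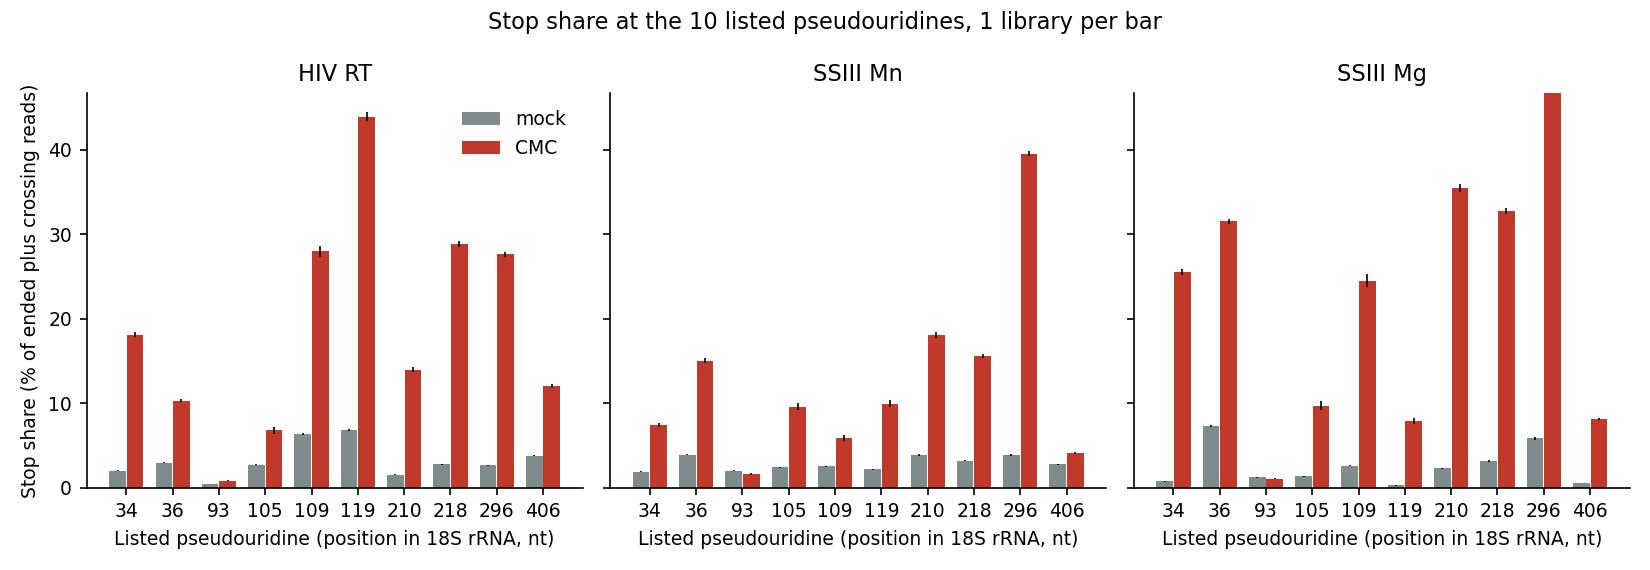
Stop share (stops over the sum of stops and crossing reads, in percent) at the 10 listed pseudouridines, by position in 18S rRNA; grey bars are mock and red bars CMC, 1 library each, with 95% Wilson intervals. Ψ296 reaches 47.1% with SSIII Mg, Ψ119 is high with HIV RT alone at 43.9%, and the bars of Ψ93 stay at or under 2.04%.

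Stop rises were called at 8 of 10 listed sites for HIV RT, 7 of 10 for SSIII Mn and 9 of 10 for SSIII Mg, and at 6 sites in every condition. Over both rRNAs 10.1%, 8.38% and 9.22% of positions were called for higher stops in the same order. The median change at the 10 sites was 14.3, 7.46 and 23.0 points, against 2.95, 1.32 and 3.26 points at the 83 unlisted U and 21.0, 10.8 and 22.5 points at the 28 pseudouridines in the rest of 18S. The stop change with SSIII Mn was below that with SSIII Mg at 9 of 10 sites, the exception being Ψ119, by a median of 9.63 points. Each of the 10 sites was called for mutation or for stops in at least 1 condition, and 5 were called for both measures in at least 1 condition. Among the 83 unlisted U, 35 were called for higher stops in at least 1 condition and 13 in all 3. For higher mutation 1 of them was called in at least 1 condition.

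Stops were also raised at positions next to the listed sites. At the base 5′ of a site, stop rises were called at 7 of the 10 sites for HIV RT, 5 for SSIII Mn and 4 for SSIII Mg. Over all positions of both rRNAs 10.1%, 8.38% and 9.22% were called. Median changes at the 5′ base were 7.81, 6.74 and 3.70 points. With stops booked as taken here, a stop at the 5′ base comes from a read that had copied the pseudouridine and gone no further. At the base 3′ of a site 4, 3 and 3 rises were called, with medians of 0.879, 1.97 and 2.18 points. They fell on C35, which is also 5′ of Ψ36, and on the unlisted U110, U120 and U219. Of all unlisted U of the region 31.3%, 22.9% and 34.9% were called, so the 3′ rises cannot be assigned to the listed sites. Among the site and its neighbours on either side, the highest CMC minus mock value lay on the site for 5, 3 and 7 of the 10 sites and on the 5′ base for 5, 6 and 2. The counts for the 5′ base include Ψ93 in each condition, where nothing was called and where the highest value for SSIII Mg was -0.0641 points.

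Ψ119 shows this most plainly. With HIV RT the change was 37.1 points at Ψ119 and 3.31 points at C118 before it. With SSIII Mn it was 7.77 points at the site and 20.8 points at C118, and with SSIII Mg 7.58 points at the site and 35.5 points at C118, where 37.8% of reads stopped with CMC and 2.23% in mock. The low SuperScript III stop shares at Ψ119 thus stood beside high ones at the next base to be copied.

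A217, before Ψ218, was called in every condition, with 15.9% against 1.64% for HIV RT, 26.98% against 2.11% for SSIII Mn, and 28.9% against 1.85% for SSIII Mg. It was the only non-uridine of the region that rose by at least 10 points in all conditions. C216, 2 nt before Ψ218, rose with SSIII Mn from 5.81% to 23.0%. On the other side, U219 and U220 were also called in all 3 conditions, U220 at 12.7% against 1.23%, 20.9% against 3.83%, and 29.0% against 6.77%. Stops were thus raised over a run of 4 bases, from A217 to U220. U219 and U220 are unlisted U themselves, so their stops cannot be assigned to Ψ218.

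Around Ψ34 and Ψ36 the conditions differed in where reads halted. With HIV RT the largest change was at G33, before Ψ34, at 24.2% against 1.61%. With SSIII Mn it was at C35, between both sites, at 26.5% against 4.95%. With SSIII Mg the largest were at the pseudouridines themselves, 24.8 points at Ψ34 and 24.2 points at Ψ36, with 6.53 points at C35 and 3.60 points at G33. C35 was called in every condition, and it is both the 3′ neighbour of Ψ34 and the 5′ neighbour of Ψ36, so its stops cannot be assigned to either.

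Around Ψ109 with SSIII Mg the stop change was almost even over 3 bases, 22.7 points at G108, 21.9 at Ψ109 and 23.6 at U110. U110 stopped 28.3% of reads with CMC and 4.63% in mock there. It is itself an unlisted U followed by A, and 13 of the 17 such U of the region were called with SSIII Mg. Its stops therefore cannot be assigned to Ψ109. Ψ296 was the opposite case. Its neighbours changed by 0.530 to 4.29 points in the 3 conditions, all uncalled, against 24.95 points or more at the site. At Ψ210 the neighbours changed by 1.39 to 3.96 points with SuperScript III, uncalled, while with HIV RT the 5′ neighbour was called at 8.72 points. No neighbour of a listed site was called for mutation, and the median mutation change of the 5′ and 3′ neighbours was at most 0.674 points.

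**Figure D3:**
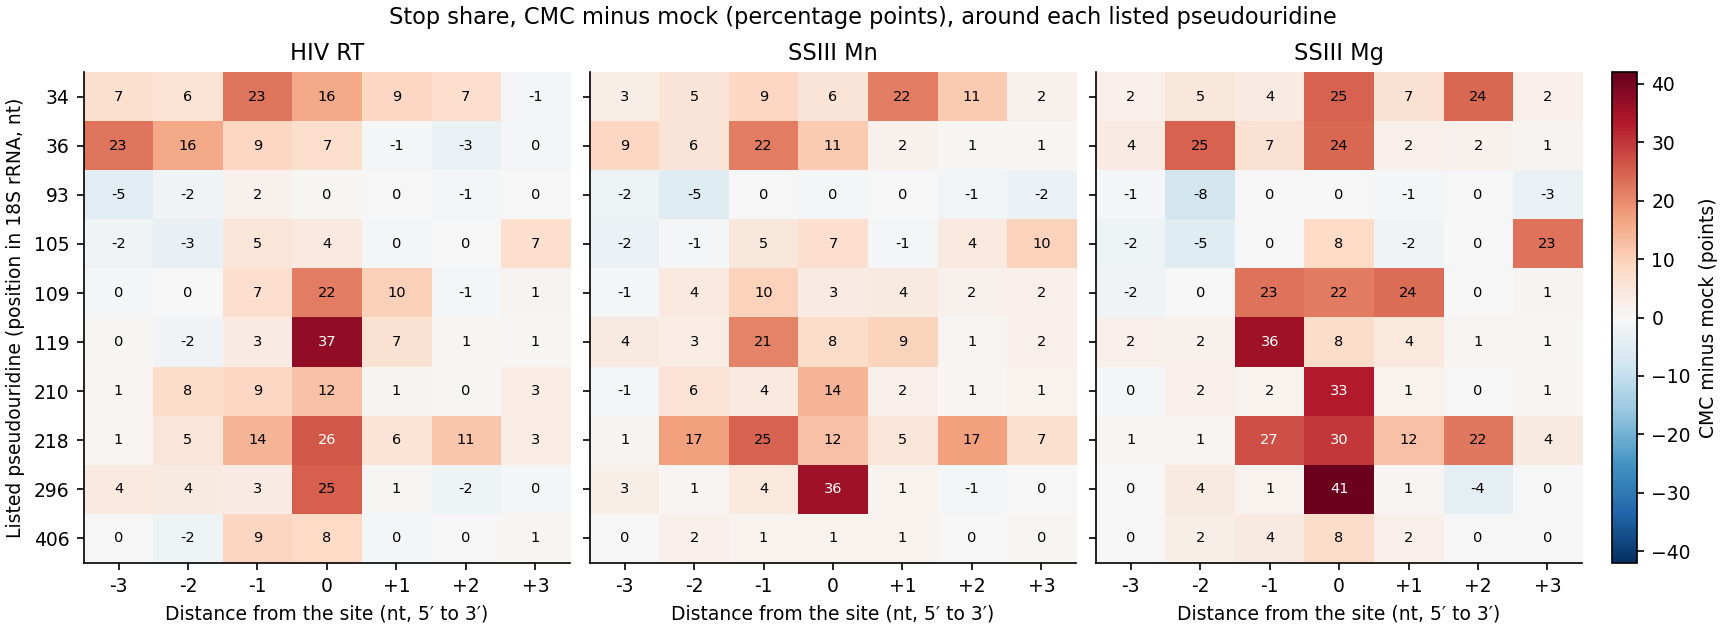
Stop share change, CMC minus mock in percentage points, from 3 nt 5′ (negative) to 3 nt 3′ (positive) of each listed pseudouridine, as colour and rounded number, 1 panel per condition. Ψ296 stands out at distance 0, Ψ119 moves from distance 0 with HIV RT to the 5′ neighbour with SuperScript III, and in the row of Ψ93 no value exceeds 1.87 points.

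The wrong base read at the listed sites was mostly C. Of the mismatched reads pooled over the 10 sites, C made up 87.2%, 80.3% and 89.9% with CMC for HIV RT, SSIII Mn and SSIII Mg, against 43.3%, 54.0% and 61.0% in mock. A site's weight in the pool follows its reads, and averaged over sites without weights it was 72.8%, 72.1% and 69.1% with CMC and 45.5%, 55.5% and 57.9% in mock. At the 83 unlisted U the pooled C share was 58.0%, 47.8% and 54.3% with CMC and 41.1%, 56.8% and 56.6% in mock. C was the most frequent wrong base with CMC at 9 of the 10 sites in each condition, and in mock at 7, 8 and 9. At the 83 unlisted U it led at 72, 50 and 62 with CMC and at 56, 73 and 75 in mock. That C led thus does not set the listed sites apart.

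Ψ34, Ψ119 and Ψ406 were the purest, with C shares of 94.1%, 93.9% and 96.3% with CMC for HIV RT. At Ψ93 the base depended on the condition. For HIV RT with CMC 90.0% of its mismatches were C, whereas in mock the most frequent base was A, at 51.6%. For SSIII Mn the most frequent was G, at 64.6% with CMC and 66.5% in mock, so the wrong base there was that of the untreated RNA. Ψ105 was the exception for HIV RT, where 78.2% of its 811 mismatched reads with CMC had A and 15.5% had C, while C led in mock at 37.8%. With SSIII Mg, A also led at Ψ105 with CMC, at 53.6%, but of only 28 mismatched reads.

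None of the 11 ribose methylations (Am27, Am99, Um116, Um121, Am159, Am166, Um172, Cm174, Um354, Um428 and Gm436) was called for mutation, and their median mutation changes were 0.0829, 0.286 and 0.0512 points for HIV RT, SSIII Mn and SSIII Mg. Am159 was the only one called for stops, with 10.97% against 2.66% for HIV RT. It had 5.40% against 1.38% for SSIII Mn and 0.9999% against 0.470% for SSIII Mg, both uncalled. For HIV RT stops 1 of 11 is 9.09%, near the 10.1% of positions called higher over both rRNAs. Higher mutation was called at 1.05%, 1.29% and 0.159% of positions over both rRNAs. The absence of mutation calls among 11 sites therefore does not set them apart. Median stop changes over the 11 were 0.687, 0.403 and 0.651 points, below those of the unlisted U. The 11 mix A, U, C and G, however, and in each condition the median stop change was lower at A, C and G than at unlisted U. For SSIII Mg it was 3.26 points at unlisted U, -0.158 at A, -0.177 at C and 0.160 at G. The difference from U alone therefore mixes the base with the methylation. Am99 had the lowest value, with SSIII Mg, at 1.16% with CMC and 4.11% in mock.

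Outside the lists, mutation rises were rare. Of the 439 positions 6, 7 and 1 were called higher for HIV RT, SSIII Mn and SSIII Mg, or 1.37%, 1.59% and 0.228%. Over both rRNAs it was 1.05%, 1.29% and 0.159%. Every call of the region for HIV RT and SSIII Mg was a listed pseudouridine. The 3 others, all with SSIII Mn, were A2, G288 and U290. G288 was misread in 8.26% of crossing reads with CMC and 0.241% in mock for SSIII Mn, in 2.22% and 1.32% for HIV RT, and in 0.774% and 0.0885% for SSIII Mg. U290 was misread in 7.34% and 0.569% for SSIII Mn, 3.87% and 0.478% for HIV RT, and 0.944% and 0.104% for SSIII Mg.

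The base read at these positions was as follows. With SSIII Mn, 95.5% of the mismatches at G288 were T with CMC, and T also led in mock, at 71.9%. At U290 79.6% were G with CMC, as at Ψ93 in the same condition, while C led in mock, at 55.8%. With HIV RT and CMC, 75.2% of the mismatches at U290 were C, the base that led at most listed sites. Stops were not raised at either of them with SSIII Mn, at 12.4% with CMC against 11.9% in mock at G288 and 2.32% against 2.80% at U290. Just 5′ of them, U285 and U286 were called for stops in all 3 conditions, U285 at 18.1% against 4.03% for HIV RT, 14.2% against 6.91% for SSIII Mn, and 24.8% against 2.47% for SSIII Mg.

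At the 5′ end, A2 was misread in 20.5% of crossing reads with CMC and 9.37% in mock for SSIII Mn, 12.5% and 11.1% for HIV RT, and 1.03% and 0.172% for SSIII Mg. Mutation fell with CMC at C3 for HIV RT (4.07% against 9.76%) and SSIII Mn (3.81% against 9.11%) and at G10 for SSIII Mn (2.27% against 9.002%). These were the region's only called falls, 1, 2 and 0 of 439 in the 3 conditions, where 0.101%, 0.332% and 0.0868% of all positions were called lower. For SSIII Mg no position fell by Fisher's exact test with the 5-point bar, and with a 2-fold bar in its place 4 positions did. The mock shares were not high in every condition, at 0.514% for C3 and 0.803% for G10 with SSIII Mg and 2.68% for G10 with HIV RT.

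**Figure D4:**
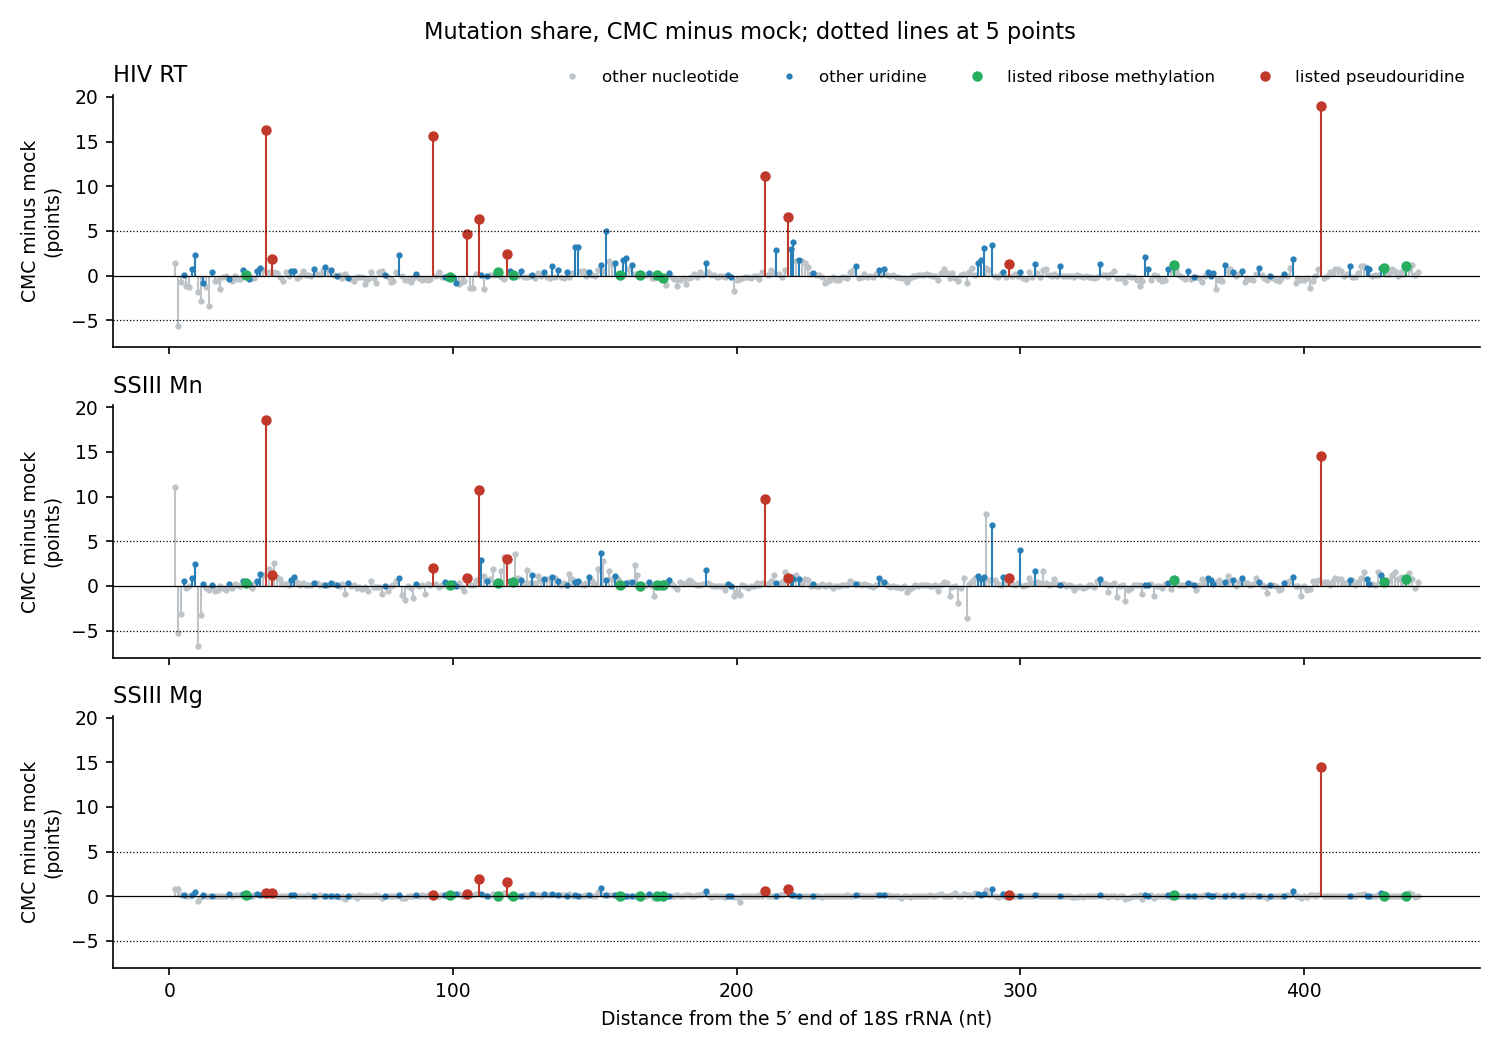
Mutation share change, CMC minus mock in percentage points, along the first 440 nt of 18S rRNA, 1 panel per condition and 1 point per position; red points are listed pseudouridines, green ribose methylations, blue other uridines and grey other nucleotides. Apart from the 5′ end and the pair at G288 and U290 in SSIII Mn, the points beyond 5 points are red.

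Stops were called far more widely than mutations. Of the 439 positions 53, 43 and 45 were called for higher stops with CMC for HIV RT, SSIII Mn and SSIII Mg, which is 12.1%, 9.79% and 10.3% and near the share over both rRNAs in each condition. In all, 72 positions were called higher in at least 1 condition and 23 in all 3. Those 23 were 6 listed pseudouridines, 13 unlisted U and 4 other bases, C35, G108, A217 and C284, and each of these 4 lies just before a U or a listed pseudouridine. For positions called in any or in all conditions no share over both rRNAs is given here. These counts therefore do not set the region apart.

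At the 83 unlisted U, 26, 19 and 29 stop rises were called for HIV RT, SSIII Mn and SSIII Mg, or 31.3%, 22.9% and 34.9%. Over all U of 18S and 28S, listed sites included, it was 37.7%, 26.3% and 43.8%, so these counts do not set the region apart. The base that follows differed between the unlisted U. Of the 17 followed by A, 11, 7 and 13 were called. Among the 17 followed by another U, 9, 8 and 10 were called, and among the 24 followed by G, 6, 4 and 6. None of the 25 followed by C was called in any condition by Fisher's exact test with the 5-point bar. Median changes before A were 6.33, 3.83 and 9.30 points, and before C 1.79, 0.563 and 1.46 points. Over all U of 18S and 28S, listed sites included, those before A were called in 76.6%, 61.7% and 81.8% of cases and those before C in 18.1%, 8.38% and 24.1%. Those before another U were called in 56.3%, 37.7% and 59.9% and those before G in 24.1%, 18.1% and 32.9%.

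The unlisted U that rose by at least 10 points in every condition were U220, U359 and U388, and all 3 are followed by A. U359 stopped 16.0% of reads with CMC and 4.03% in mock for HIV RT, 13.0% and 2.27% for SSIII Mn, and 19.8% and 4.04% for SSIII Mg. U388 stopped 14.5% against 1.46%, 19.5% against 5.17%, and 18.9% against 5.38%. These changes, from 10.7 to 15.7 points, were in the range of the listed sites. With mutation, no unlisted U of the region reached the bar for HIV RT. None did for SSIII Mg either, but there only 1 of the 10 listed sites reached it. For SSIII Mn 1 unlisted U did, U290 at 6.77 points.

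U422 was the unlisted U with the largest SSIII Mn stop change, at 23.3% against 4.63%, with 9.51% against 1.84% for HIV RT and 26.1% against 4.91% for SSIII Mg. U5 was among the largest HIV RT rises, at 20.1% against 7.65%. For HIV RT no unlisted U exceeded the median change of the listed sites, for SSIII Mg 1 of 83 did, and for SSIII Mn 14 of 83 did. In the SSIII Mn libraries a stop therefore set the listed sites apart least.

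**Figure D5:**
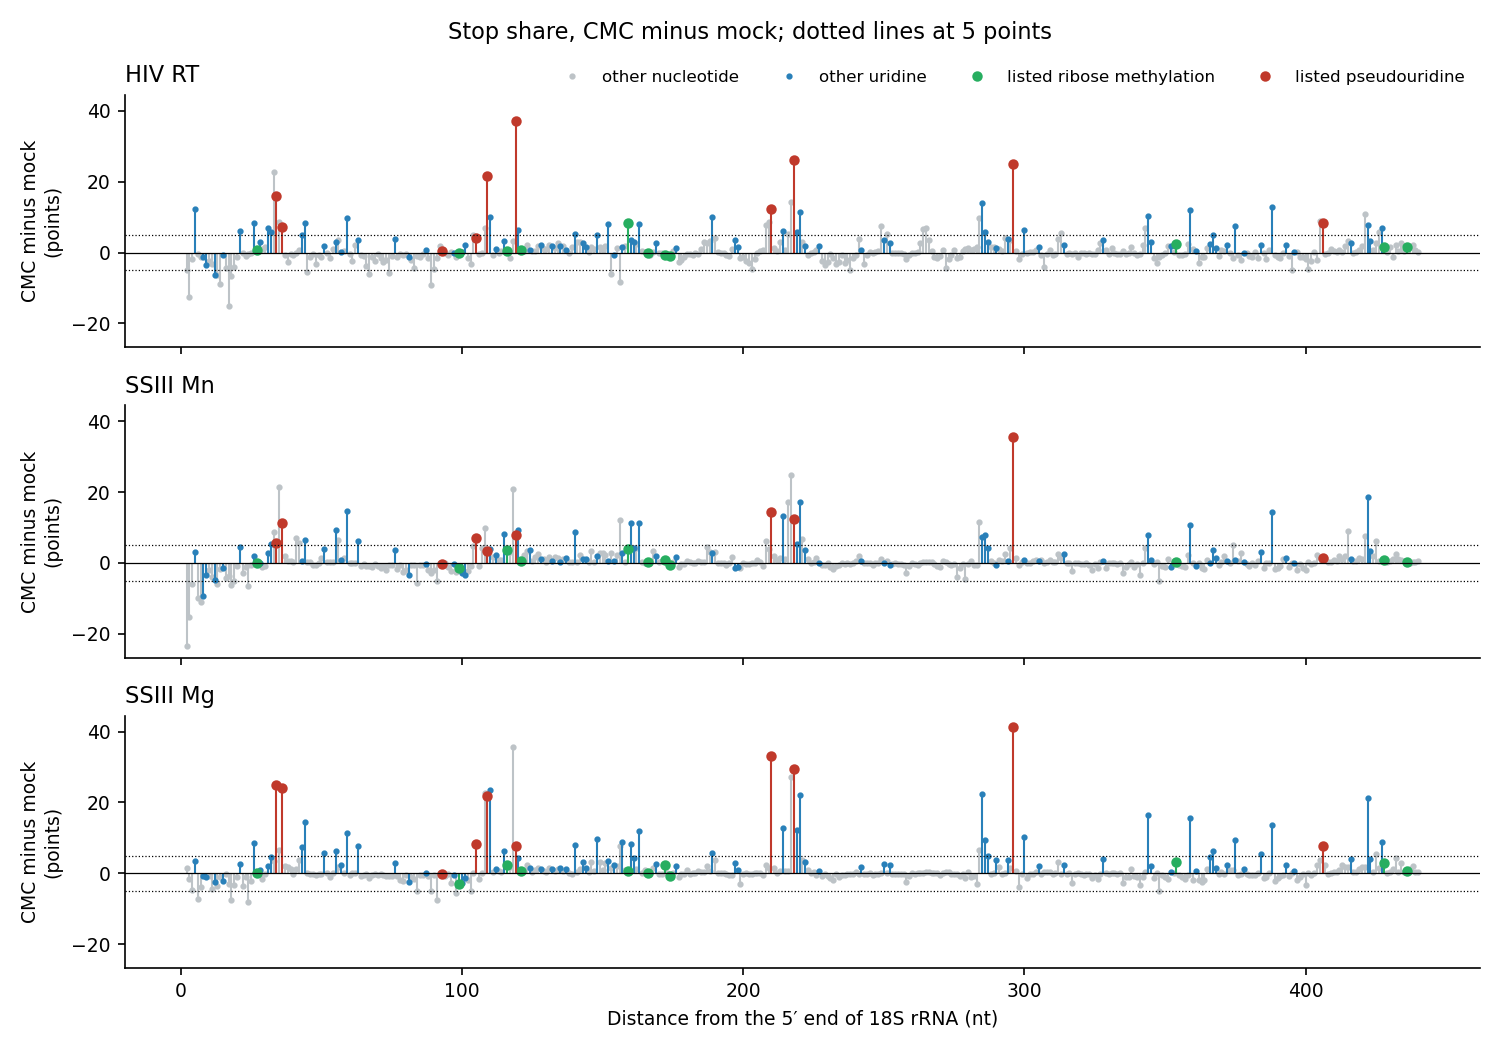
Stop share change, CMC minus mock in percentage points, along the first 440 nt of 18S rRNA, 1 panel per condition and 1 point per position; red points are listed pseudouridines, green ribose methylations, blue other uridines and grey other nucleotides. The red points at Ψ34, Ψ36, Ψ119, Ψ210, Ψ218 and Ψ296 are beyond 5 points in all panels. Ψ93 is near 0, and points below -5 lie mostly at the left end.

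Stops fell with CMC at 12, 12 and 7 of the 439 positions, where 3.66%, 1.98% and 1.84% of all positions of both rRNAs were called lower. Of the 23 positions that fell in at least 1 condition, 11 lay in the first 20 nt, and positions 1 to 110 held 10, 11 and 6 of the falls. C18 was the only one to fall in all 3 conditions, at 1.65% with CMC against 8.26% in mock for HIV RT, 1.54% against 7.79% for SSIII Mn, and 1.18% against 8.72% for SSIII Mg. A2 fell with SSIII Mn from 58.8% to 35.3%, and C17 with HIV RT from 16.6% to 1.49%.

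Further in, the largest falls were at C89 for HIV RT (1.07% against 10.2%) and at C24 (2.91% against 10.96%) and A91 (0.936% against 8.49%) for SSIII Mg. C89 and A91 lie close to Ψ93, which itself had no stop rise. G156 was called in opposite directions. Its stop share with CMC was 6.02% against 14.2% for HIV RT, but 16.7% against 4.51% for SSIII Mn and 12.4% against 4.74% for SSIII Mg. In the first positions of 18S the natural end of the RNA and a stop of the enzyme cannot be told apart.

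By stretches of 110 positions, the median stop change was -0.521, -0.529 and -0.435 points over positions 1 to 110 for HIV RT, SSIII Mn and SSIII Mg. It was 1.02, 1.15 and 0.803 points over positions 111 to 220, which hold Ψ119, Ψ210 and Ψ218. Over positions 221 to 330, which hold Ψ296 alone, it was 0.0184, -0.0449 and -0.114 points, and over positions 331 to 440, which hold Ψ406 alone, 0.243, 0.328 and 0.234 points. Called rises numbered 16, 14 and 14 in the first stretch (14.7%, 12.8% and 12.8%) and 16, 16 and 16 in the next (14.5% each). They numbered 10, 5 and 5 in the third (9.09%, 4.55% and 4.55%) and 11, 8 and 10 in the last (10%, 7.27% and 9.09%). Over both rRNAs 10.1%, 8.38% and 9.22% of positions were called. Differences between the stretches were not tested. The region was crossed by fewer reads than the rest of 18S in all 6 libraries, for example a median of 69917 against 101503 reads for HIV RT with CMC.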

How the data were processed

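Per the labels, fragmented HEK293T/17 RNA was treated with CMC or mock-treated and copied under 3 conditions, 1 library each. The submitters' processing notes list Trimmomatic 0.32 and Bowtie 1.0, with settings not given in the sources used here. The HIV RT tables carry another name ending than the SuperScript III tables, and what it stands for is not given either. Per the file headers, the 12 deposited tables hold counts of crossing reads, of each base and of stops, and the mismatch rate and stop frequency as a fraction, which were recomputed from the counts within 1e-09. A stop was taken to be booked at the template base that was not copied. For 18S in all 6 libraries the rise of crossing reads from position 2 to 3 equals the stops at position 1. This equality goes with that booking but does not fix it alone.

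Pairs of libraries were compared per position with Fisher's exact test, two-sided (Python 3.11.15, numpy 2.4.6, scipy 1.17.1, pandas 2.3.3, plots with matplotlib 3.10.9), adjusted over all tested positions of both rRNAs. The coverage minimum was 100 reads, the bar 5 points and the threshold 0.05, and calls were checked on simulated data. Shares have 95% Wilson and differences 95% Newcombe intervals. Named were all listed sites, their neighbours where called, and, outside the lists, the 5 largest called rises and 3 largest called falls per condition and measure, with positions raised by 10 points for stops in all 3 conditions; positions described beyond these were chosen after their values were seen. The members and lists were chosen with earlier results of these data known. Alternatives were other coverage minimums, bars, a fold in place of the bar, adjustment over 18S alone, other denominators and offsets for stops, and other averages.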

Additional observations from a re-analysis of the deposited data

Results flagged for a closer look

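The stop share at position 156, a G outside the lists, moved in opposite directions with CMC. CMC minus mock was -8.23 points for HIV RT (6.02% against 14.2%), 12.2 points for SSIII Mn (16.7% against 4.51%) and 7.64 points for SSIII Mg (12.4% against 4.74%). The difference between the conditions was not tested across samples, since each had 1 library per treatment.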

How the results depend on the processing

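The CMC and mock libraries were matched by condition, with 1 pair per condition, so no paired analysis was possible within a condition. A fit of treatment with the condition as a block, which would average the change over the 3 conditions, was not made. Values are given in the order HIV RT, SSIII Mn, SSIII Mg. Coverage minimums of 10 or 1000 and adjustment over 18S alone kept every count of calls within 1.5 times, and adjustment over 18S alone changed no call of a listed site. With a bar of 2 points the mutation rises numbered 19 (HIV RT) and 18 (SSIII Mn), the falls 3 and 5, the stop rises 112, 93 and 98 and the stop falls 50, 36 and 34. With a bar of 10 points the SSIII Mn mutation rises numbered 4, the mutation falls 0 (HIV RT) and 0 (SSIII Mn), the stop rises 16, 18 and 22 and the stop falls 2, 4 and 0. A 2-fold difference with no bar in points gave 78, 211 and 178 mutation rises, 53, 20 and 4 mutation falls, 104, 100 and 101 stop rises and 62, 61 and 68 stop falls. No shares over both rRNAs are given for these alternatives, so their counts do not set the region apart. For SSIII Mn, mutation lay above mock at 346 of 439 positions of the region and at 5385 of 6924 positions of both rRNAs. Without the first 20 positions the mutation falls numbered 0 for HIV RT and 0 for SSIII Mn, and the stop falls 6 and 4. With stops taken over the crossing reads of the next 3′ position, 11 stop falls were called for SSIII Mg.

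For the median mutation change at the listed sites, the mean over sites gave 8.52, 6.24 and 2.06 points, pooled reads 9.79, 7.26 and 4.21, the CMC library alone 7.01 (HIV RT), and the 7 sites with no other listed modification within 3 nt 2.04 (SSIII Mn) and 0.548 (SSIII Mg). For stops, the mean gave 15.8, 9.82 and 19.8 points, pooled reads 14.9 (HIV RT) and 12.5 (SSIII Mn), the CMC library alone 16.0, 9.77 and 25.04, the 7 sites 12.5 (HIV RT) and 21.9 (SSIII Mg), the base 3′ of the site 0.879, 1.97 and 2.18, and the base 5′ of it 7.81, 6.74 and 3.70. In alternatives chosen after seeing the data, adding the reads that ended right after the site to the denominator gave 11.9, 6.17 and 19.4, and stops at the site and 5′ of it together 21.2, 14.6 and 29.8. The C share of mismatches as a mean over sites was 72.8% for HIV RT, 72.1% for SSIII Mn and 69.1% for SSIII Mg with CMC, and 45.5% for HIV RT and 57.9% for SSIII Mg in mock. The cause of these shifts was not tested. No value changed sign. A bar of 2 points added 4 mutation and 2 stop calls among the 30 of each measure at listed sites, and a bar of 10 points removed 3 and 8.

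With 1 library per group, differences between cultures, treatments and library preparations cannot be told apart. The enzyme and any difference in processing between the HIV RT and SuperScript III tables cannot be told apart either.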
